A study of Mus musculus with 6 samples.

Results

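Glucose uptake and glycolysis were described in lung group 2 innate lymphoid cells (ILC2s) of neonatal mice through 10 genes, chosen by symbol: the glucose transporters Slc2a1 and Slc2a3, and the enzyme genes Hk1, Hk2, Gpi1, Pfkl, Aldoa, Pgk1, Eno1 and Ldha. They are 10 of the 55394 genes listed for each library. SMART-seq, a full-length cDNA method for small numbers of cells, was run on 6 libraries of 1000 sorted cells each. There were 3 libraries from pups born to dams given ampicillin, metronidazole, neomycin and vancomycin in the drinking water between gestation days 10 and 14 (Abx) and 3 from pups of dams without the cocktail (Con). All pups were wild type on the C57BL/6 background, both sexes were used in the study, and neither labels nor methods give the age of the pups behind these libraries. The sort took CD45+ Lin- CD90.2+ CD25+ cells of the lung, where Lin stands for a cocktail of antibodies to T, B, NK, myeloid and erythroid markers. Nothing states that the libraries of a group came from separate animals or litters, so p-values measure only the spread between these libraries, which may be technical.

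Cells take up glucose through facilitative carriers and phosphorylate it with a hexokinase, which traps the sugar in the cell. Phosphofructokinase then commits it to glycolysis, aldolase splits it, and the lower steps yield ATP and pyruvate, which lactate dehydrogenase can reduce to lactate for export. Several steps have alternative isozymes encoded by separate genes, and activated lymphocytes are known for high glycolytic flux. ILC2s are tissue-resident lymphocytes known for making the type 2 cytokines IL-5 and IL-13.

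Values are FPKM, fragments scaled to transcript length and to the mapped fragments of the library, so levels can be set against each other between genes. Read numbers are unknown, and no counting error can be given. Total FPKM per library lay between 420941 and 489262. The number of genes with at least 1 FPKM was 8574 to 9203 in Con and 7074 to 8193 in Abx, with no overlap. Of 12 ILC2 markers, 11 reached 1 FPKM in all libraries of each group. The marker that did not was Il1rl1, the IL-33 receptor, at 0.06, 0.89 and 2.94 FPKM across the Con libraries, compared with 0.03, 0.01 and 0.03 FPKM across the Abx libraries. Icos, a costimulatory receptor, was at 241 to 289 FPKM in Con libraries against 82.4 to 120 FPKM in Abx libraries, and Areg, the growth factor amphiregulin, at 657 to 783 against 197 to 393 FPKM, so 3 of the 12 markers (these and Il1rl1) were lower in every Abx library than in every Con library. Ptprc, which encodes CD45, was the 1 of the 12 that was higher in every Abx library. Markers of T cells, which the gate should leave out, summed to 1233 to 1411 FPKM in the Con libraries. In the Abx libraries they summed to 2543 to 2899 FPKM. Most of each sum came from Trbc2, at 874 to 958 FPKM in Con against 1639 to 1803 FPKM in Abx. Trbc1 followed, at 208 to 387 FPKM in Con against 633 to 778 FPKM in Abx. Of the 10 T cell markers, 5 were higher in every Abx library than in every Con library. Cd3e and Trac overlapped between the groups, and no T cell marker was lower in every Abx library. In each group 6 of the 10 reached 1 FPKM in every library. Cd4 was listed at 0 in all libraries but Abx 2, and Cd8a was under 1 FPKM in all but Con 1. Summed B cell markers came to 382.3 to 508.1 FPKM in Con 1 to 3, against 856.8 to 903.4 FPKM in Abx 1 to 3. Most of each sum came from Ighm (109 to 159 FPKM in Con, 358 to 429 FPKM in Abx) and Igkc (127 to 218 FPKM in Con, 261 to 365 FPKM in Abx). Of the 7 markers, 3 were higher in every Abx library than in every Con library. Cd79b went the other way, at 69.5 to 117 FPKM in Con against 31.0 to 57.4 FPKM in Abx, and Cd79a overlapped. In each group 5 of the 7 reached 1 FPKM in every library. Of 5 NK cell markers, 3 were under 1 FPKM in every library, and the summed level was 0 to 21.7 FPKM across the Con libraries, compared with 215.4 to 223.6 FPKM across the Abx libraries, all of the latter from Gzma. Summed mast cell and basophil markers came to 323.6 to 422.0 FPKM in Con libraries and were lower in every Abx library, at 184.9 to 295.0 FPKM, mostly from Cpa3, with Mcpt4 under 1 FPKM throughout. Summed erythroid markers were 6422 to 14823 FPKM in Con libraries against 3166 to 8659 FPKM in Abx libraries, mostly haemoglobin, although the gate names Ter119. Epithelial markers summed to 42.7 to 1166 FPKM over the 6 libraries, with the highest value in Con 1 from Scgb1a1, and myeloid markers to 114.9 to 368.8 FPKM, with 3 of 7 under 1 FPKM throughout. Neutrophil markers summed to 0 to 75.3 FPKM, endothelial markers to 5.1 to 21.1 FPKM and fibroblast markers to 0.5 to 2.8 FPKM. The part of these other cells in the results for glycolysis was not tested, and in such bulk libraries fewer cells of a type and less RNA per cell cannot be told apart.

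The sequences upstream of an annotated start in 5 of the 10 genes are shown because hypoxia-inducible factor and Myc, regulators known to act on glycolysis genes, bind short motifs that can be read in them. RefSeq promoter windows for GRCm38.p6 were matched by symbol for 9 of the 10 genes, 15 windows in all, and each was read over the 250 bases before a RefSeq start. Genes can have several starts, and the windows shown for Ldha and Aldoa lie inside the gene, at starts 4329 and 1497 bases downstream of the first start in GENCODE. Hk1 has another window, not shown, at a start 39487 bases downstream of its first. Which start these cells used is unknown. The Ldha start of RefSeq is not itself a start in GENCODE, where the nearest begins 35 bases further downstream, and the bases after it were not found in a GENCODE transcript of the gene. The letters ACGTG, a form of the core of a hypoxia response element, were searched on both strands, and other forms of that core were not. The E-box CACGTG was searched too. It contains ACGTG, so that each E-box also counts as a match to the shorter motif. Capitals mark the matches, on the strand of the gene, 5′ to 3′, and a match is a description of the letters only. The windows lie at chr7:46845554-46845803 (+) for Ldha, chrX:106186850-106187099 (+) for Pgk1, chr7:126799255-126799504 (-) for Aldoa, chr6:82774455-82774704 (-) for Hk2 and chr10:62379909-62380158 (-) for Hk1.
Ldha: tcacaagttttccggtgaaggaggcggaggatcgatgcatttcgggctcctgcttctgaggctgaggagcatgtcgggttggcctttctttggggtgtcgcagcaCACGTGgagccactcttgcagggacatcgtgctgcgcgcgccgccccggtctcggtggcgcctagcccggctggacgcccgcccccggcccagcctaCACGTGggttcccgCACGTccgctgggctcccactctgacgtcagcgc
Pgk1: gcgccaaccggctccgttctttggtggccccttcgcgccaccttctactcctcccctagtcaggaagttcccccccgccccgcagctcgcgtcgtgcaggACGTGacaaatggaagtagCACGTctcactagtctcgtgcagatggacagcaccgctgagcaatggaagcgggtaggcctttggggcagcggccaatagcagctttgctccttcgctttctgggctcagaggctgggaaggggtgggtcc
Aldoa: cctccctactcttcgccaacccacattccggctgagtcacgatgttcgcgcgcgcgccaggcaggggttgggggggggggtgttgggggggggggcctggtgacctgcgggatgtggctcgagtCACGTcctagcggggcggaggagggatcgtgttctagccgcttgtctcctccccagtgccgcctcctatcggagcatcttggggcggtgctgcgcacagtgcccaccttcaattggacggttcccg
Hk2: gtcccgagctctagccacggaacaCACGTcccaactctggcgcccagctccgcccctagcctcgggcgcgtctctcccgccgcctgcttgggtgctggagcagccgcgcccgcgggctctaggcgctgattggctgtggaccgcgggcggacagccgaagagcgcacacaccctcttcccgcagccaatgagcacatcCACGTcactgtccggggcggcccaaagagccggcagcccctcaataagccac
Hk1: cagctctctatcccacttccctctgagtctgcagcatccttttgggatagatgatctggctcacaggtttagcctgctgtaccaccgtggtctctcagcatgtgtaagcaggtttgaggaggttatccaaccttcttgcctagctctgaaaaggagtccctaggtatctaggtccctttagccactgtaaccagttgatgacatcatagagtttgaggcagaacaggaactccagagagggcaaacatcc

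ACGTG occurred in 6 of the 15 windows, which belong to Slc2a1, Hk2, Aldoa, Pgk1 and Ldha, and in 16.6% of all 32851 windows of the same length. The 6 include 2 overlapping Aldoa windows that hold the same site. CACGTG occurred in 1 of the 15, the Ldha window shown, and in 6.02% of all windows. That Ldha window held 5 matches to ACGTG counted over both strands, of which 4 came from its 2 E-boxes. The Pgk1 window and the Hk2 window held 2 matches each, the Aldoa window held 1, and the Hk1 window held none.

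In levels, Ldha stood highest and the genes of the first steps lowest. The order of the Con means, as listed, was Ldha, Aldoa, Eno1, Pgk1, Gpi1, Slc2a1, Slc2a3, Pfkl, Hk2 and Hk1, from 630 ± 41.6 FPKM (SD, n = 3) to 6.08 ± 1.55 FPKM (SD, n = 3). In the Con libraries each of the first 6 lay wholly above the next, while Slc2a3, Pfkl, Hk2 and Hk1 overlapped with their neighbours. The place of Eno1 below Aldoa depends on how reads were split, since Eno1 with its near copies summed to 328 to 384 FPKM in Con libraries, above Aldoa. Among all genes listed, Ldha ranked between 91 and 135 in level over the 6 libraries, Aldoa between 230 and 308, and Eno1 between 205 and 416. The 10 genes together summed to 1234, 1279 and 1331 FPKM in Con 1 to 3 and to 1053, 1127 and 1195 FPKM in Abx 1 to 3, so the groups did not overlap. With the near copies of these genes added, a sum chosen after the values were seen, they did overlap, at 1380 to 1473 FPKM in Con libraries against 1169 to 1391 FPKM in Abx libraries. Most of the first sum came from Ldha, Aldoa and Eno1.

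**Figure D1:**
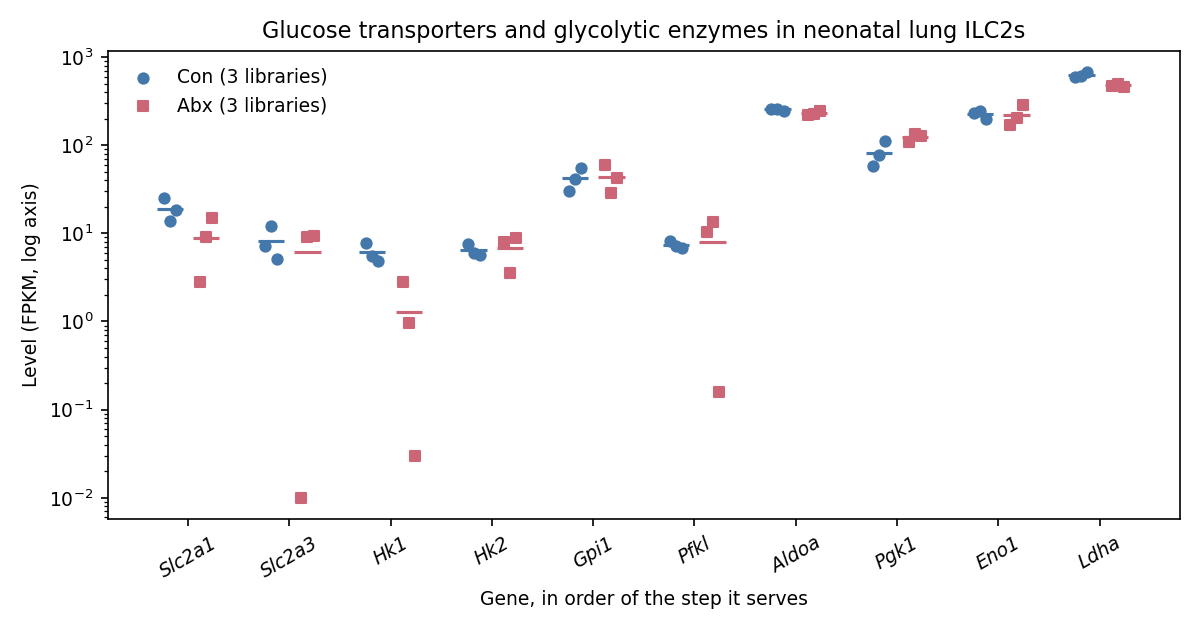
Level of each of the 10 genes in FPKM (vertical, log axis) in the 3 Con libraries (circles) and the 3 Abx libraries (squares), with the group mean as a bar. Ldha, Aldoa and Hk1 are lower in every Abx library than in every Con library, and single Abx libraries stand far below the rest at Slc2a3 (0.01 FPKM), Pfkl (0.16 FPKM) and Hk1 (0.03 FPKM).

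Against the background of all genes, the 10 did not pass the test for a difference between pups of Abx and Con dams. With limma on log2(FPKM + 1), counting as called a change of more than 2-fold whose adjusted p was below 0.05, 0 of 10 were called, and 5 of 8718 genes tested (0.0574%) were called. At an unadjusted p under 0.05, 2 of the 10 were lower in Abx (Hk1 and Ldha) and 0 were higher, where 6.25% of all genes tested were lower and 4.74% higher. Hk1 entered the test through its Con libraries, where it was high. The 3 libraries of a group lay wholly below those of Con for 3 of the 10 (Hk1, Aldoa and Ldha) and wholly above for 0, and the same held for 8.73% of all genes tested below and 8.49% above. The median log2 difference over the 10 was -0.28, with 8 negative and 2 positive, and -0.06 over all genes tested, with 4621 negative and 4097 positive. The differences are on the log2(FPKM + 1) scale, which understates the change of genes at low level.

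Glucose enters through Slc2a1 (GLUT1, the widespread basal carrier) and Slc2a3 (GLUT3, a carrier of high affinity). Slc2a1 lies at chr4:119108711-119137983 (+). Its level was 25.2, 13.7 and 18.3 FPKM in Con 1 to 3 and 2.80, 9.19 and 14.9 FPKM in Abx 1 to 3. The highest Abx library exceeded the lowest Con library, so the groups overlapped, with means of 19.1 ± 5.79 and 8.95 ± 6.03 FPKM (SD, n = 3 each). The log2 difference was -1.20 with a standard error of 0.67, which limma did not separate from 0 (adjusted p = 0.591). It was -0.62 without Abx 1.

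Slc2a3, at chr6:122727809-122801640 (-), read 7.16, 12.2 and 5.18 FPKM in the Con and 0.01, 9.02 and 9.45 FPKM in the Abx libraries. The library Abx 1 alone was far from the others. Its log2 difference of -0.89 (standard error 1.05, limma adjusted p = 0.824) became 0.23 without that library. The processed pseudogene Gm4482 overlaps Slc2a3 on the same strand and was listed at 1.48 to 6.09 FPKM, so the split of reads between these entries is uncertain.

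Of the other carriers listed, 3 reached 1 FPKM in some library, and none of these 3 separated the groups. Slc2a8 (GLUT8, an intracellular carrier) was listed at 17.2, 5.33 and 3.27 FPKM in Con 1 to 3, against 0.05, 24.6 and 0 FPKM in Abx 1 to 3. Slc2a9 (GLUT9, a carrier of urate) was listed at 0 in all Con libraries and at 3.53, 3.78 and 0 FPKM in Abx, and Slc2a6 reached 1 FPKM only in Abx 2, at 8.16 FPKM. As a share of the summed FPKM of the 10 carriers listed, Slc2a1 took 50.8%, 43.8% and 68.4% in Con and 43.0%, 16.8% and 60.9% in Abx. Slc2a3 took 14.4%, 39.1% and 19.3% in the Con libraries against 0.154%, 16.5% and 38.8% in Abx. Neither carrier's share separated the groups (exact permutation p = 0.4 for Slc2a1 and p = 0.7 for Slc2a3).

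The hexokinase isozymes took near-equal shares in each Con library, and Hk2 took the larger share in each Abx library. Hk1 encodes the constitutive form and Hk2 the form known to be induced in activated and proliferating cells, both bound to mitochondria. Hk1, at chr10:62268855-62379908 (-), read 7.83, 5.54 and 4.87 FPKM across the Con libraries, compared with 2.83, 0.95 and 0.03 FPKM across the Abx libraries. All Abx libraries lay below all Con libraries. The means were 6.08 ± 1.55 and 1.27 ± 1.43 FPKM (SD, n = 3 each), and the log2 difference of -1.82 (standard error 0.74) had a limma adjusted p of 0.407. Of the Abx libraries only Abx 1 reached 1 FPKM, so Hk1 entered the test through its Con libraries, where it was high. The fitted difference is therefore no support for a lower level in Abx. Under the alternatives tried the difference ranged from -3.64 to -1.35 with limma adjusted p from 0.238 to 0.808. Abx 3, where Hk1 was lowest, and the other Abx libraries also had fewer genes at 1 FPKM or more than the Con libraries, and the part of this in the Hk1 difference was not tested.

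Hk2, at chr6:82725025-82774454 (-), read 7.63, 5.95 and 5.69 FPKM in the Con and 7.88, 3.57 and 8.87 FPKM in the Abx libraries. Con values lay inside the range of the Abx values, and the log2 difference was -0.00 with a standard error of 0.67 (limma adjusted p = 1.0). The share of hexokinase FPKM that Hk1 took came to 50.6%, 48.0% and 45.9% in Con libraries against 26.0%, 20.6% and 0.335% in Abx. The share of Hk2 came to 49.4%, 51.6% and 53.7% in Con libraries against 72.4%, 77.3% and 99% in Abx. The mean share of Hk2 was 31.3 percentage points higher in Abx, with no overlap between the groups. The exact permutation p was 0.1, the smallest that 3 libraries against 3 can give. After adjustment over the 14 shares tested in 5 steps it was 0.35. Hk1 and Hk2 make up nearly the whole step, so the share of Hk2 is close to the complement of that of Hk1. As the levels of Hk2 overlapped, its share restates the Hk1 values and is no further support for a difference. The summed hexokinase level was 10.6 to 15.5 FPKM over the Con and 4.62 to 10.9 FPKM over the Abx libraries, with overlap. The antisense gene within Hk1, Hk1os, and that within Hk2 were listed at 0 in all libraries.

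**Figure D2:**
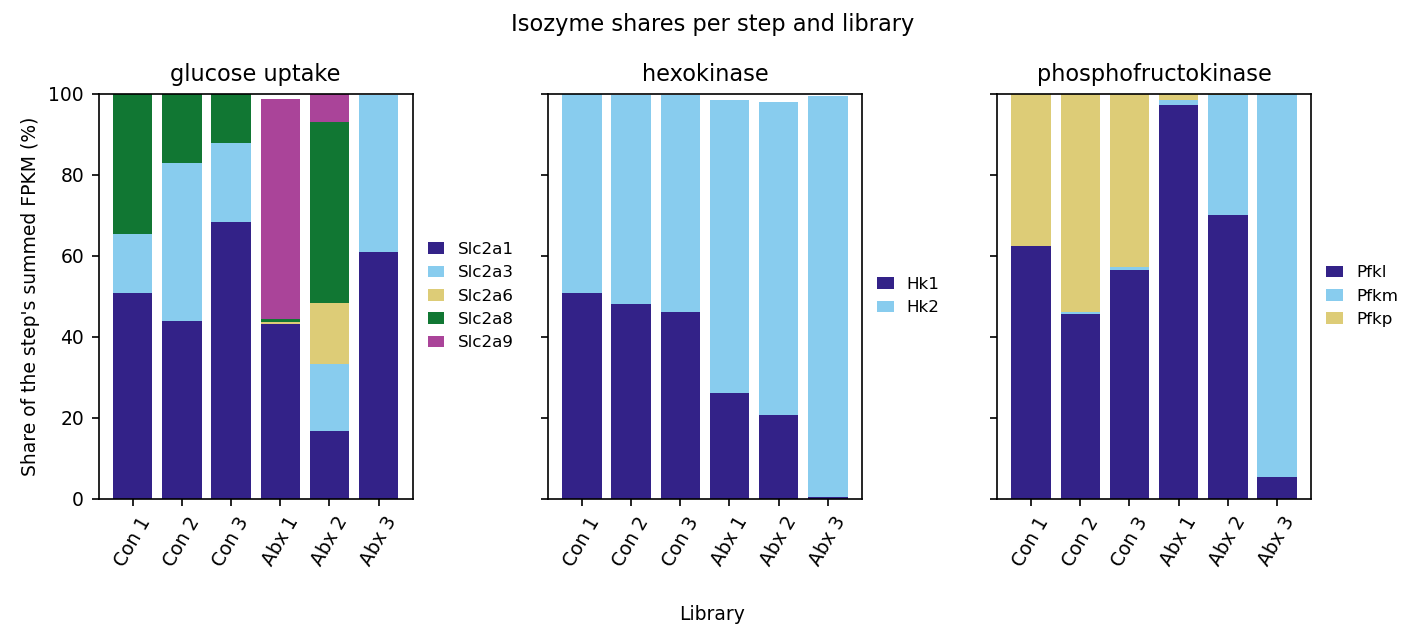
Share of the summed FPKM of each step (vertical, percent) taken by each isozyme that reached 1 FPKM in some library, for glucose uptake, hexokinase and phosphofructokinase in the 6 libraries, with a white remainder for isozymes that stayed under 1 FPKM. Hk2 takes 49.4% to 53.7% of hexokinase in Con and 72.4% to 99% in Abx, and Pfkp takes 37.6% to 53.9% of phosphofructokinase in Con and at most 1.71% in Abx.

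Gpi1 encodes the isomerase that turns glucose 6-phosphate into fructose 6-phosphate, and lies at chr7:34201330-34230336 (-). It read 30.1, 41.1 and 55.1 FPKM across the Con libraries, compared with 58.9, 29.0 and 42.6 FPKM across the Abx libraries. The group ranges nearly coincided, and the log2 difference was 0.03 with a standard error of 0.39 (limma adjusted p = 0.986).

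Phosphofructokinase is made of subunits from 3 genes, whose shares differed widely between single libraries. Pfkl, the liver type that many tissues also make, lies at chr10:77986947-78010083 (-). Its level was 8.23, 7.18 and 6.78 FPKM in the Con and 10.3, 13.6 and 0.16 FPKM in the Abx libraries. Abx 1 and Abx 2 lay above all Con libraries and Abx 3 far below them. The log2 difference of -0.54 (standard error 1.05, limma adjusted p = 0.892) became 0.61 without Abx 3. Pfkp, the platelet type, read 4.97, 8.50 and 5.14 FPKM in Con 1 to 3, against 0.18, 0.09 and 0 FPKM in Abx 1 to 3. Every Abx library lay below 1 FPKM, so Pfkp passed the filter of the test through the Con libraries alone, which fixed its direction, and no fitted value is given. Pfkm, the muscle type, was at 0.02 to 0.09 FPKM across the Con libraries, compared with 0.11, 5.75 and 2.90 FPKM across the Abx libraries, which left it under the filter of the test.

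In shares of phosphofructokinase FPKM, Pfkl took 62.3%, 45.5% and 56.5% in Con, and 97.2%, 70.0% and 5.23% in Abx. Pfkm took 0.151% to 0.667% in Con and 1.04%, 29.6% and 94.8% in Abx. The shares of Pfkp and of Pfkm did not overlap between the groups (exact permutation p = 0.1 each, 0.35 after adjustment over the 14 shares). The Pfkp share restates the levels of a gene under 1 FPKM in every Abx library, so it is no further support for a difference. In Abx 1, Pfkm was at 0.11 FPKM, against at most 0.09 FPKM in Con, so its separation rests on values below 1 FPKM. Con libraries thus held Pfkl and Pfkp side by side, and the listed mixture differed between Abx libraries. Each Abx mixture includes values below 1 FPKM, whose counting error is unknown, so isozyme use per Abx library is uncertain. The summed level of the 3 isozymes was 12 to 15.8 FPKM in the Con and 3.06 to 19.4 FPKM in the Abx libraries, with overlap.

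Aldoa encodes aldolase A, which splits fructose 1,6-bisphosphate, and lies at chr7:126795234-126800751 (-). It read 259, 261 and 248 FPKM in Con 1 to 3, against 222, 225 and 242 FPKM in Abx 1 to 3. The Abx libraries lay below the Con libraries by a small margin, with means of 230 ± 11.1 against 256 ± 7.02 FPKM (SD, n = 3 each). The log2 difference was -0.15 with a standard error of 0.18 (limma adjusted p = 0.818). A second entry with the symbol Aldoa, at chr7:126800790-126809108, was listed at 0 in all libraries and was not used.

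Between aldolase and phosphoglycerate kinase lie triose-phosphate isomerase (Tpi1) and glyceraldehyde-3-phosphate dehydrogenase (Gapdh), whose genes are not among the 10. Tpi1 read 28.0, 62.2 and 55.2 FPKM across the Con libraries, compared with 90.1, 73.0 and 59.5 FPKM across the Abx libraries (log2 difference 0.66, standard error 0.38, limma adjusted p = 0.599). Gapdh was listed at only 15.4, 32.7 and 16.6 FPKM in the Con and 33.5, 4.95 and 25.0 FPKM in the Abx libraries, below Tpi1 and Pgk1 in every library. It has 174 near copies elsewhere in the annotation (at least 90% identity over at least 300 aligned bases of another gene's transcript), which together hold 97.0% of the FPKM summed over Gapdh and them. With those copies added, a sum chosen after the values were seen, the level was 614, 712 and 637 FPKM in Con 1 to 3, against 893, 549 and 842 FPKM in Abx 1 to 3, with overlap between the groups.

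Pgk1 encodes phosphoglycerate kinase, the first ATP-yielding enzyme of the pathway, and lies at chrX:106187100-106203699 (+). It read 57.4, 77.1 and 111 FPKM across the Con libraries, compared with 109, 135 and 126 FPKM across the Abx libraries. Con 3 exceeded Abx 1 slightly, so the groups overlapped, with means of 81.7 ± 27.0 and 124 ± 13.4 FPKM (SD, n = 3 each). The log2 difference of 0.63 (standard error 0.30) had a limma adjusted p of 0.496. With its 4 near copies, which hold 4.2% of the summed FPKM, the lowest Abx value (119 FPKM) lay above the highest Con value (115 FPKM). That sum was chosen after the values were seen, and Abx libraries lay wholly above Con libraries for 8.49% of all genes tested. Pgk1 is on the X chromosome, and Xist, the RNA that coats the silenced X of female cells, was at 3.78, 4.38 and 5.09 FPKM in Con and listed at 0 in all Abx libraries. Exposure and sex of the pups cannot be told apart in these libraries.

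The mutase that follows, Pgam1, was at 1.22 FPKM or less in all libraries, while its near copy Pgam1-ps2, which is identical over 765 aligned bases, averaged 6.74 FPKM. Pgam2, the muscle form, was listed at 0 in 3 libraries and reached 38.7 FPKM in Abx 1. No group difference can be read from so uneven a step.

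Eno1 encodes enolase 1, which makes phosphoenolpyruvate, and lies at chr4:150236721-150248879 (+). It read 233, 243 and 200 FPKM in the Con and 171, 204 and 287 FPKM in the Abx libraries. The Abx libraries spanned the range of the Con libraries, and the log2 difference was -0.06 with a standard error of 0.25 (limma adjusted p = 0.955). Eno1 took 92.6% to 100% of the summed enolase level. Eno3, the muscle form, appeared in Con 2 (19.3 FPKM) and Abx 2 (5.61 FPKM) and stayed below 1 FPKM in the others.

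The level of Eno1 is uncertain because 6 near copies hold 35.6% of the FPKM summed over it and them. The retrogene Eno1b, identical at 99.5% of 1736 aligned bases, read 83.5, 105 and 81.0 FPKM in Con 1 to 3, against 81.8, 6.93 and 127 FPKM in Abx 1 to 3. The processed pseudogene Gm4735, identical at 99.6% of 1302 bases, averaged 41.1 FPKM over the 6 libraries and was named after its values were seen. With all copies added, a sum chosen after the values were seen, the level was 368, 384 and 328 FPKM across the Con libraries. It was 289, 233 and 474 FPKM across the Abx libraries, again with overlap.

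**Figure D3:**
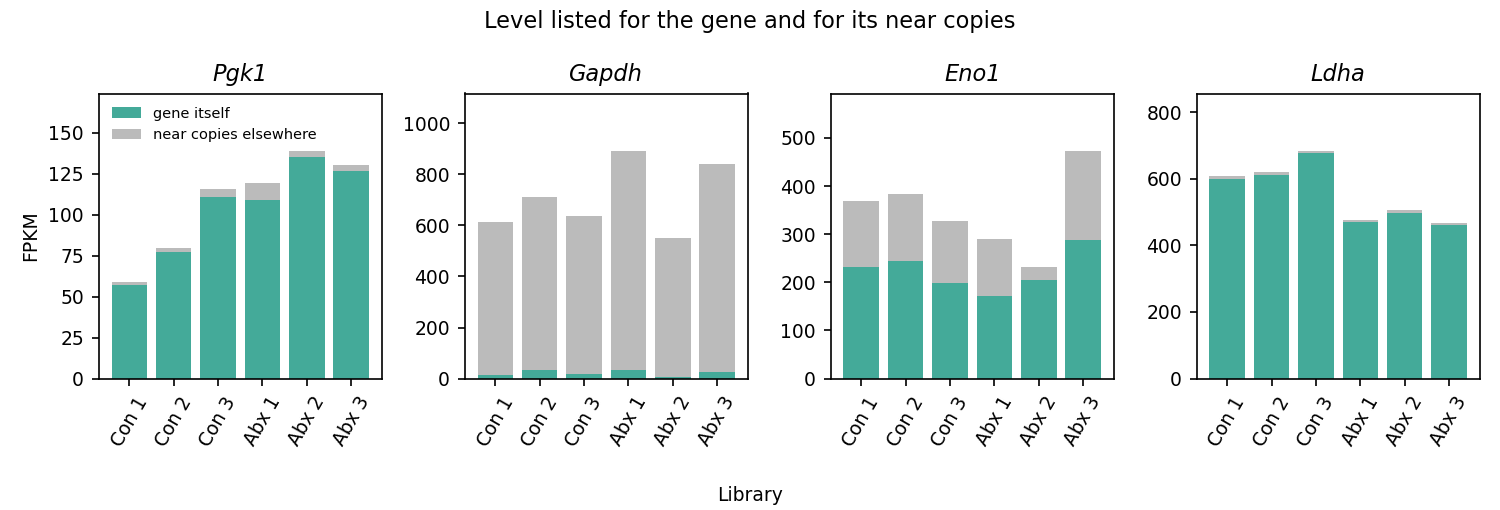
FPKM (vertical, from 0, own scale per panel) listed for Pgk1, Gapdh, Eno1 and Ldha themselves and stacked on it the FPKM listed for their near copies elsewhere in the genome, in the 6 libraries. Near copies hold 97.0% of the summed level for Gapdh, 35.6% for Eno1, 4.2% for Pgk1 and 1.4% for Ldha.

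Pyruvate kinase was represented by Pkm, at 222, 347 and 279 FPKM in the Con and 209, 167 and 286 FPKM in the Abx libraries (log2 difference -0.36, standard error 0.27, limma adjusted p = 0.706). The values do not say which of the spliced forms M1 and M2 the gene made.

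Ldha encodes the M subunit of lactate dehydrogenase, the form known to favour lactate production, and lies at chr7:46841475-46855627 (+). It read 600, 612 and 677 FPKM in Con 1 to 3, against 469, 498 and 463 FPKM in Abx 1 to 3. All Abx libraries lay below all Con libraries, with means of 476 ± 18.7 against 630 ± 41.6 FPKM (SD, n = 3 each). The log2 difference of -0.40 (standard error 0.16) had a limma adjusted p of 0.416. It kept its sign under every alternative tried, at -0.43 to -0.35, with limma adjusted p from 0.270 to 0.845. Changing the filter or adding the replicate block could not alter the difference itself. The 13 near copies of Ldha hold 1.4% of the summed FPKM. The groups stayed apart with them added, a sum chosen after the values were seen.

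Ldhb, the H subunit, was listed at 0, 19.3 and 10.98 FPKM across the Con libraries, compared with 0.09, 0 and 0.09 FPKM across the Abx libraries. Ldha took 96.9% to 100% of the summed lactate dehydrogenase level in Con and 100% in Abx after rounding. Con 1 without Ldhb resembled the Abx libraries in this, so the shares overlapped between the groups (exact permutation p = 0.4).

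Lactate leaves through monocarboxylate transporters, which basigin (Bsg) carries to the cell surface. Slc16a3 (MCT4, the exporter of glycolytic cells) read 7.18, 3.57 and 4.94 FPKM in the Con and 0.11, 0.01 and 0.04 FPKM in the Abx libraries. It too passed the filter through the Con libraries alone, and no fitted value is given. Slc16a1 (MCT1) read 8.24, 12.1 and 18.5 FPKM in Con 1 to 3, against 31.5, 16.2 and 27.4 FPKM in Abx 1 to 3, with Con 3 above Abx 2. Its log2 difference was 0.92 with a standard error of 0.50 (limma adjusted p = 0.579). Bsg was at 136 to 209 FPKM across the Con libraries, compared with 94.8 to 196 FPKM across the Abx libraries.

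Beside the 10, 31 genes were listed for the steps from uptake to lactate export, and 8 of them passed the filter of at least 1 FPKM in at least 3 libraries. Of these 8, 0 were called. Pfkp and Slc16a3 had an unadjusted p under 0.05, but they passed the filter through the Con libraries alone. Pfkm, which was higher in every Abx library than in every Con library, was kept out by the same filter, so the directions of the 8 are not summarised.

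**Figure D4:**
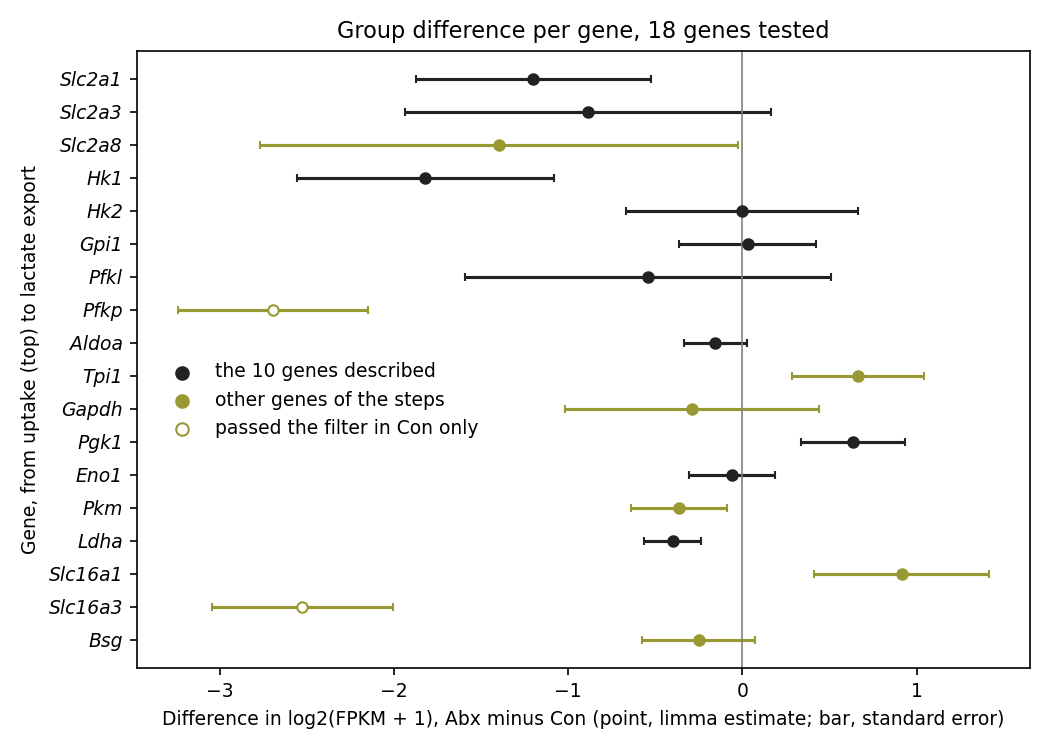
Difference in log2(FPKM + 1), Abx minus Con (horizontal, limma estimate with its standard error as a bar), for the 18 tested genes from glucose uptake (top) to lactate export (bottom), with the 10 genes described in black and the other genes of the steps in olive. Open circles mark Pfkp and Slc16a3, which passed the filter through the Con libraries alone, so that their side of 0 was fixed by the filter, and none of the 18 passed an adjusted p under 0.05.

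For the regulators known to act on the pathway, the estimated differences had both signs, and limma separated no such gene from 0 after adjustment. Among 11 listed genes of the hypoxia and Myc branch, 9 were tested, with 4 positive and 5 negative differences, a median of -0.16 and 0 calls. Hif1a, the oxygen-regulated subunit of hypoxia-inducible factor 1, read 34.0, 25.7 and 25.2 FPKM in the Con and 28.8, 15.8 and 11.4 FPKM in the Abx libraries (log2 difference -0.66, standard error 0.46, limma adjusted p = 0.681; chosen after its values were seen). Myc was at 17.0, 66.4 and 28.5 FPKM in Con 1 to 3, against 20.4, 34.7 and 53.1 FPKM in Abx 1 to 3, with complete overlap. Egln2, a prolyl hydroxylase that marks the hypoxia-inducible factors for destruction, read 16.3, 8.85 and 6.11 FPKM across the Con libraries, compared with 53.9, 23.3 and 19.4 FPKM across the Abx libraries. Its Abx libraries lay wholly above its Con libraries, which held for 8.49% of all genes tested. Its log2 difference of 1.5 (standard error 0.58) had a limma adjusted p of 0.381.

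Of 12 listed hypoxia-inducible genes outside glycolysis, 11 were tested, with 6 positive and 5 negative differences, a median of 0.20 and 0 calls. Higd1a, a mitochondrial inner-membrane protein, read 32.9, 34.5 and 39.3 FPKM in the Con and 65.9, 50.3 and 73.9 FPKM in the Abx libraries (log2 difference 0.80, limma adjusted p = 0.348). Mif, a cytokine, read 21.6, 44.8 and 27.8 FPKM in Con 1 to 3, against 8.63, 5.18 and 15.8 FPKM in Abx 1 to 3 (log2 difference -1.63, limma adjusted p = 0.284). Bhlhe40, a transcriptional repressor and the most abundant gene of this list, was at 351 to 504 FPKM across the Con libraries, compared with 205 to 389 FPKM across the Abx libraries (log2 difference -0.72, limma adjusted p = 0.404). Higd1a was higher and Mif lower in every Abx library than in every Con library. Thus 1 of the 11 tested lay apart on each side, where 8.49% of all genes tested lay wholly above and 8.73% wholly below.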

How the data were processed

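SMART-seq values of 6 libraries (3 Con, 3 Abx) were analysed, grouped by their labels. The authors made cDNA from sorted cells with a Smart-seq v4 kit, trimmed with Cutadapt, mapped with HISAT2 and computed FPKM per gene with StringTie, and the deposited files hold these FPKM. Their methods name a human Ensembl annotation, while the identifiers are mouse, and the submitters' processing notes name Bowtie 0.12.2 and the builds mm8 and mm9, so the build used in mapping is not settled. Of 55394 identifiers, 55134 are in GENCODE M21 (GRCm38), whose gene coordinates are given. Reads per library are unknown.

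The 8718 genes that reached 1 FPKM in 3 or more libraries were tested on log2(FPKM + 1) with limma 3.58.1 in R 4.3.3 (lmFit, eBayes with trend), two-sided, with Benjamini-Hochberg adjustment over all of them. The call needed a change of more than 2-fold and an adjusted p below 0.05. The authors used DESeq2, which needs read counts, so that test was not repeated. Isozyme shares were compared by an exact two-sided permutation test, whose smallest p is 0.1. Near copies were searched with BLAST+ 2.17.0. The script for the fit was tested on simulated data. The genes and lists were chosen with earlier results of these data known. Of the lists, the text names the most abundant gene, genes with an unadjusted p under 0.05, and isozymes of the described steps that reached 1 FPKM in some library. Sequences are from RefSeq (GRCm38.p6).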

Additional observations from a re-analysis of the deposited data

How the results depend on the processing

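Over the alternatives tried, 0 of the 10 genes were called (Hk1 was not tested under the stricter filter, a mean of at least 5 FPKM), except that 1 (Hk1) passed at a fold change over 2 with an unadjusted p under 0.05. Hk1 entered the test through its Con libraries, where it was high. Of 135 differences recomputed for the 10 genes, 10 changed sign, and 5 genes (Slc2a1, Hk1, Aldoa, Pgk1 and Ldha) never did. Those computed without a filter, with the stricter filter or with the replicate block equal the main difference by construction, so they could not change sign. Adding the second Aldoa entry, listed at 0 in all libraries, could not change it either. Leaving out 1 library at a time gave log2 differences from -1.65 to -0.62 for Slc2a1, -1.46 to 0.23 for Slc2a3, -0.21 to 0.34 for Hk2, -0.21 to 0.29 for Gpi1, -1.21 to 0.61 for Pfkl and -0.26 to 0.11 for Eno1. Hk2 was at 0.0213 with the medians of the libraries aligned, and Gpi1 at -0.11 after quantile normalization. In isozyme shares (Abx minus Con, percentage points), leaving out 1 library gave -16.0 to 3.31 for Slc2a3, -17.2 to 28.8 for Pfkl and -0.963 to 2.71 for Eno1, and the share of Slc2a1 changed from -14.1 to 5.80, and that of Pfkl from 2.72 to 44.2, when only genes that passed the filter were summed. Over all genes, the count of calls was 5, and it was 0 with a pseudocount of 0.1 or 0.01, with median alignment, without a filter and with the replicate block, 0 to 2 with 1 library left out, 7 after quantile normalization or with the stricter filter, 5 without the limit on the fold change, and 814 at a fold change over 2 with an unadjusted p under 0.05, and the causes were not tested. Deviations of libraries with the same replicate number correlated at -0.02, -0.03 and 0.01. No pairing by number showed in these, but deviations from means of 3 libraries cannot exclude it. The block called 0 of the 10 genes, as did the fit without it, so that count says nothing about pairing. The values of genes below about 1 FPKM carry an unknown counting error, which touches Hk1, Slc2a3 and Pfkl in single Abx libraries.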

Other observations

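Beyond the pathway itself, the entry of pyruvate into mitochondria, the pentose phosphate branch and gluconeogenesis were read from lists of their genes. Of 9 genes listed for mitochondrial pyruvate entry, 7 were tested, with 2 positive and 5 negative differences, a median of -0.49 and 0 calls. Pdhb, a subunit of pyruvate dehydrogenase and the most abundant of them, was at 91.3, 70.8 and 84.4 FPKM in the Con and 50.1, 90.9 and 78.3 FPKM in the Abx libraries, with overlap. Of 7 genes listed for the pentose phosphate branch, 6 were tested, with 2 positive and 4 negative differences, a median of -0.43 and 0 calls. Taldo1, transaldolase, led that list at 174, 120 and 145 FPKM in Con 1 to 3, against 116, 208 and 222 FPKM in Abx 1 to 3.

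Of 6 genes listed for gluconeogenesis, 2 passed the filter and 0 were called. Pck2, the mitochondrial phosphoenolpyruvate carboxykinase, read 2.17, 2.64 and 3.93 FPKM across the Con libraries, compared with 0.04, 0.01 and 0 FPKM across the Abx libraries. It passed the filter through the Con libraries alone, and no fitted value is given. Pfkfb3, which makes the allosteric activator of phosphofructokinase and was the 1 of 5 such genes to pass the filter, read 0.15, 0.03 and 1.11 FPKM in the Con and 3.15, 0.09 and 3.88 FPKM in the Abx libraries. G6pc3, a glucose-6-phosphatase, ranged from 0 to 28.3 FPKM in Con and from 2.98 to 19.5 FPKM in Abx.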
